A study of Homo sapiens with 4 samples.

Results

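The 10 genes described here encode telomerase, the 6 subunits of shelterin and a protein that binds telomeres that have lost protection. They are TERT, TERC and DKC1 for telomerase, TERF1, TERF2, TERF2IP, POT1, ACD and TINF2 for shelterin, and RIF1. The genes were chosen by name, with earlier results of these data known. They are 10 of the 62218 genes and hold 121 of the 242542 transcripts that could be matched to the annotation. The value of a gene was the number of alignments on its isoform with the largest mean count over the libraries.

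Nanopore cDNA libraries were made from total RNA of wild-type H1 cells, an established human embryonic stem cell line, in 2 states with 2 replicates each. Primed hESCs were grown in mTeSR medium until they covered 60 to 70% of the dish, and naïve hESCs in FINE culture until 50%. By the study's methods the naïve cells were induced from the primed H1 cells, so both states share 1 line and 1 genotype. The labels do not say that the replicates came from separate cultures, so the p-values below measure only the spread between these libraries, which may be technical.

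Telomeres are the repeat-covered ends of chromosomes. Telomerase extends them: TERT is the reverse transcriptase, TERC is the RNA that carries the template, and dyskerin, the product of DKC1, binds and stabilises TERC. Shelterin coats the repeats and keeps them from being read as broken DNA. TERF1 and TERF2 bind double-stranded repeats, POT1 binds the single-stranded overhang and reaches the complex through ACD (also called TPP1), TINF2 (TIN2) bridges the subunits, and TERF2IP (RAP1) rides on TERF2. Pluripotent stem cells are known for active telomerase.

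The libraries held between 129276054 and 161548901 counts over all transcripts, and between 23489371 and 30936888 over the gene values. All 8 naïve markers were lower in primed hESCs and all 8 primed markers were higher. KLF17, which is usually lost in the primed state, had 2200 and 2423 alignments in the naïve replicates, against 2083 and 2236 in the primed replicates. With libraries scaled by size alone, KLF17 was not called (log2 fold change 0.23, edgeR adjusted p = 0.111). Markers of trophoblast, the lineage that forms the placenta, also moved with the state. Of 12, 11 were lower in primed hESCs, and KRT7 was not called. Over KRT7-209, an isoform that overlaps no other gene, KRT7 was called higher in primed hESCs (log2 fold change 0.97, edgeR adjusted p = 0.0045). It was also called higher with libraries scaled by size alone (edgeR adjusted p = 0.0026). The summed level of the 12 markers was 3053 and 3363 CPM (counts scaled to a common depth by TMM) in the naïve libraries against 8.47 and 8.81 CPM in the primed ones. Among them, CGB3, CGB5 and CGB8 had near-equal counts, 9797, 9344 and 9158 in naïve replicate 1. Alignments were counted at every place a read aligned, so these genes may share reads that the sum holds repeatedly, which was not tested. HSD3B1 had 0 counts in both primed libraries, and CGA had 0 and 1. The 3 amnion markers were lower in primed hESCs too, with summed levels of 13.1 and 11.5 CPM against 4.66 and 3.17 CPM. Of these sums, GABRP made up 6.68 and 5.73 CPM in the naïve libraries and 4.49 and 2.87 CPM in the primed ones. With libraries scaled by size alone, GABRP was not called (log2 fold change -0.11, edgeR adjusted p = 0.670). Whether the naïve hESCs or other cells expressed these markers was not tested, nor was any part of other cells in the differences below. In such bulk libraries, fewer cells that express a gene and less RNA per cell cannot be told apart.

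Of the 10 genes, 4 were higher in primed hESCs (TERT, DKC1, TERF1 and POT1), 3 were lower (TERF2IP, TINF2 and RIF1) and 3 were not called (TERC, TERF2 and ACD). The test was edgeR's quasi-likelihood test with TMM scaling at a Benjamini-Hochberg adjusted p under 0.05 over 27634 genes. The 2 states differ over most of the transcriptome, and 70.0% of the tested genes were called, 37.4% higher and 32.6% lower, so that 7 called of 10 is close to the background. Scaling by library size in place of TMM changed the split over all genes from 10328 higher and 9009 lower to 15543 and 4504, and raised the log2 fold change of the median gene by 0.64. The CPM values of the states did not overlap for 9 of the 10 genes, against 84.4% of all tested genes. The median log2 fold change (primed over naïve) was 0.39 over the 10 genes and 0.08 over all tested genes. As to size, 4.63% of the tested genes were called higher with a fold change at least that of TERF1, and 8.53% with one at least that of TERT.

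**Figure D1:**
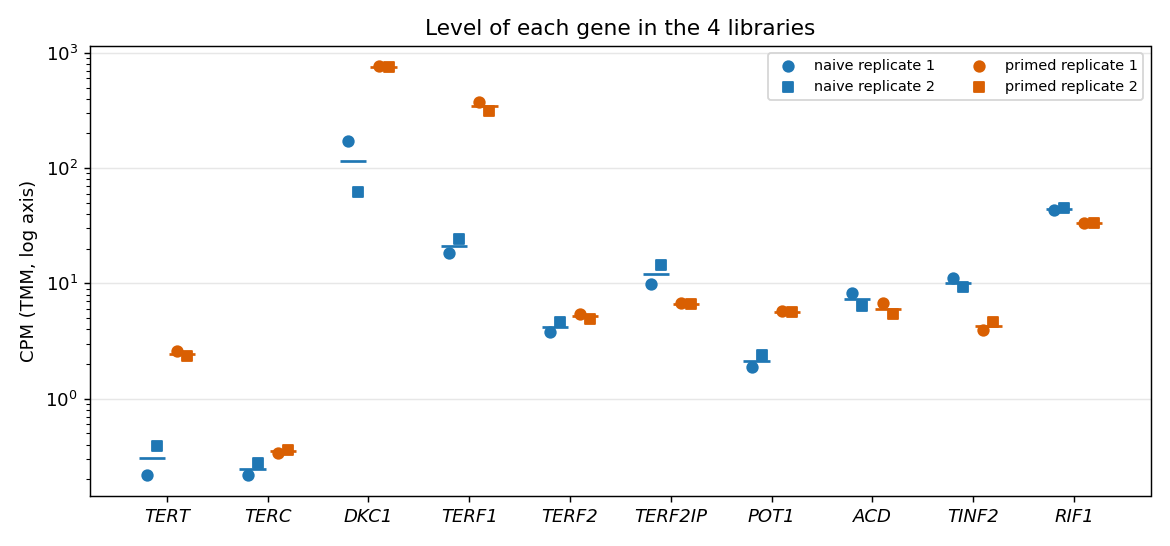
Level of each of the 10 genes in CPM on a log axis, with a point for each library (circles replicate 1, squares replicate 2) and a bar at the mean of each state. TERF1 and DKC1 stand highest in the primed libraries, the naïve DKC1 values lie apart at 171 and 62.0 CPM, and ACD is the gene whose states overlap.

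Divided by exonic length, the levels ran from DKC1 at the top to TERT at the bottom in both states. Counts covered whole spans, introns included, and the order depended on this division. Without it, TERC had the lowest mean, 0.246 CPM in naïve and 0.350 CPM in primed hESCs, against 0.305 and 2.47 CPM for TERT. RIF1, with 14662 exonic bases, then had 44.1 CPM in naïve hESCs, below only DKC1. In naïve hESCs the mean was 47.1 CPM per kb for DKC1, 6.38 for TERF1, 6.14 for TERF2IP, 5.64 for TINF2, 4.83 for ACD, 3.01 for RIF1, 1.41 for TERF2, 0.700 for POT1, 0.454 for TERC and 0.0754 for TERT. The libraries of TERF1, TERF2IP, TINF2 and ACD overlapped their neighbours in that order. In primed hESCs the mean was 306 CPM per kb for DKC1, 103 for TERF1, 4.0 for ACD, 3.39 for TERF2IP, 2.37 for TINF2, 2.28 for RIF1, 1.87 for POT1, 1.73 for TERF2, 0.646 for TERC and 0.611 for TERT. TINF2 and RIF1 overlapped there, as did TERC and TERT. TERF1, which lay among the other shelterin subunits in the naïve state, lay far above them in the primed state. The first place of DKC1 in primed hESCs rests on its 3′ end: over isoforms clear of other genes, DKC1-206 had 27.7 CPM per kb there and TERF1-204 had 78.3.

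TERC supplies the sequence that telomerase copies, so its template region is shown, read from GRCh38 at chr3:169764990-169765030 on the minus strand (bases 31 to 71 of TERC-201), with the template, bases 46 to 56, in capitals.
TERC template: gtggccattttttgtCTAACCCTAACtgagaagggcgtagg
TERC (ENSG00000270141; TERC-201, chr3:169764520-169765060, minus strand, 1 exon of 541 bases) had 5 and 7 counts in naïve hESCs, against 10 and 11 in primed hESCs. The primed values were higher, but all 4 are close to the floor of 3 counts, and the gene passed the filter of 10 counts only through the primed libraries. The log2 fold change was 0.49 ± 0.53 (SE, n = 2 per state; edgeR adjusted p = 0.413), so no difference in TERC was detectable from these counts. How well these cDNA libraries capture TERC was not tested, so the counts may not show its level. A second annotated gene, Telomerase-vert, lies within the same locus and had the same counts.

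TERT (ENSG00000164362; TERT-201, chr5:1253167-1295068, minus strand, 16 exons and 4039 exonic bases) had 5 and 10 alignments in the naïve replicates, against 76 and 72 in the primed replicates. These are 0.217 and 0.392 CPM against 2.58 and 2.35 CPM. Both naïve libraries were low, and both primed libraries were high, and the gene passed the filter on low counts only through the primed libraries. The call and p-value of TERT are thus given as a description. The mean was 8.10-fold higher in primed hESCs, with a log2 fold change of 2.98 ± 0.38 (SE, n = 2 per state; edgeR adjusted p = 3.584e-09).

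Counts ignored strand and covered whole spans, introns included. An antisense lncRNA, ENSG00000287486 (chr5:1252006-1255976, plus strand), overlaps the 3′ end of TERT and had 3 and 1 counts in the naïve libraries against 27 and 35 in the primed ones. Alignments on the TERT span that did not touch it numbered at least 2 and 9 in naïve hESCs, against at least 49 and 37 in primed hESCs. TERT-205 (chr5:1264248-1266524), which overlaps no other gene, had 1 and 1 against 12 and 12 counts. It reached the filter on low counts only through the primed libraries, so its counts are given without a test.

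The 5 protein-coding genes whose levels followed TERT most nearly were ARHGEF19, EPHB1, P3H4, IMPACT and EPHA4, at distances from 0.114 to 0.220 in centred log2 CPM over the 4 libraries. Their log2 fold changes ran from 2.84 to 3.20. In all, 71 of 12209 genes lay nearer than 0.5, and this likeness over 4 libraries is given as a description.

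DKC1 (ENSG00000130826; DKC1-201, chrX:154762864-154777689, plus strand, 15 exons) had 3934 and 1581 counts in naïve hESCs, against 22444 and 22963 in primed hESCs. These are 171 and 62.0 CPM against 763 and 750 CPM. The primed libraries lay close together, while the naïve libraries lay far apart. The mean was 6.50-fold higher in primed hESCs, with a log2 fold change of 2.70 ± 0.22 (SE, n = 2 per state; edgeR adjusted p = 1.104e-14). It was 3.55 without naïve replicate 1 and 2.09 without naïve replicate 2.

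This difference lay at the 3′ end of the gene. DKC1-211 (chrX:154775119-154776911), which reaches into the last exon, had 3689 and 1242 alignments in the naïve replicates, against 22207 and 22651 in the primed replicates. Isoforms whose spans end before the last exon had far fewer counts, and the states lay nearer to each other. DKC1-206 (chrX:154762913-154766555) had 411 and 503 counts against 588 and 499, and DKC1-202 (chrX:154767016-154776260) had 449 and 538 against 781 and 734. Over DKC1-206, which overlaps no other gene, the log2 fold change was -0.0047 ± 0.16 (edgeR adjusted p = 0.980). In that fit, over the 13431 genes with an isoform clear of other genes that could be tested, 69.7% were called.

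Alignments confined to chrX:154776273-154777689 could be bounded by subtracting the spans that cover the rest of the gene. They made up at least 77.5% and 32.1% of the DKC1 count in naïve hESCs, against at least 93.2% and 94.0% in the primed libraries. In counts, these are at least 3050, 507, 20929 and 21585. The lower bound could take in a few alignments on the first bases of the gene. The stretch holds the last exon, from 154776799 to 154777689, and its coding part is shown as the coding sequence within it. The bounds also take in intron and 3′ UTR, so the counts do not place the alignments on the coding part, and in naïve replicate 2 the stretch held between 32.1% and 66.5% of the DKC1 count. It was read from GRCh38 at chrX:154776799-154776867 on the plus strand. Capitals mark a run of 7 AAG units, codons for lysine, at 154776814 to 154776834.
DKC1 last exon, coding part: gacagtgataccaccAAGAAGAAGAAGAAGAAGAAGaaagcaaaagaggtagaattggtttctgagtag
What these alignments come from was not tested.

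**Figure D2:**
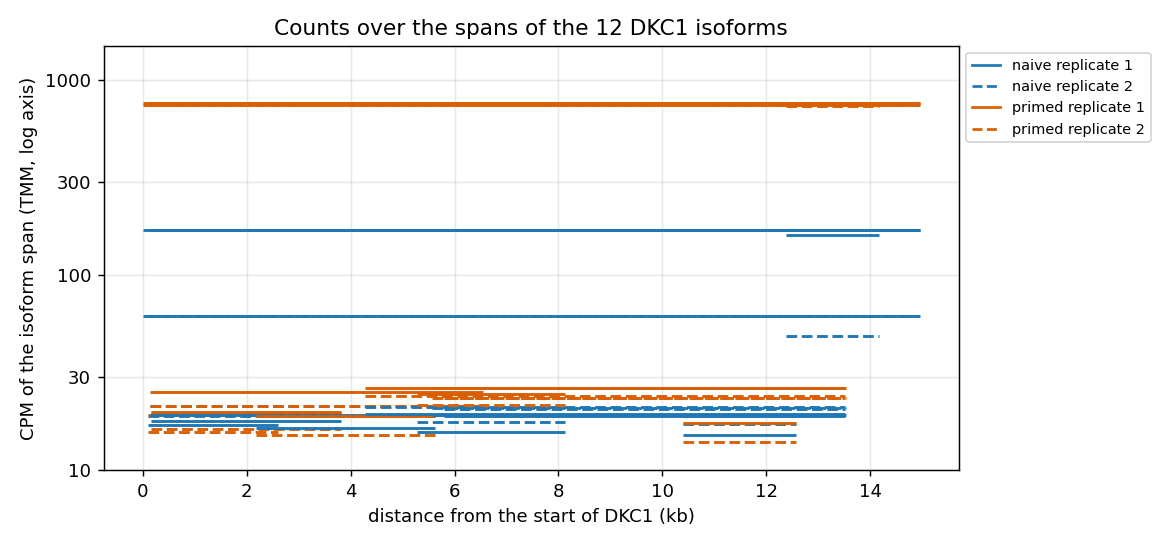
CPM (log axis) counted over the span of each of the 12 DKC1 isoforms, drawn from the start to the end of the span in kb from the start of the gene, with a line for each library. Spans that reach the last exon separate the states and the naïve replicates, and spans that end before it lie together near the bottom in all 4 libraries.

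Among the shelterin genes, TERF1 changed most. TERF1 (ENSG00000147601; TERF1-202, chr8:73008864-73048123, plus strand, 10 exons) had 420 and 618 counts in naïve hESCs, against 10919 and 9649 in primed hESCs. These are 18.2 and 24.3 CPM against 371 and 315 CPM. The states were far apart, and the replicates of each lay close together. The mean was 16.2-fold higher in primed hESCs, with a log2 fold change of 4.01 ± 0.17 (SE, n = 2 per state; edgeR adjusted p = 1.569e-24). TERF1-204 (chr8:73008908-73012505), whose span overlaps no other gene, had 256 and 381 counts against 9153 and 7731, with a log2 fold change of 4.48 ± 0.18 (edgeR adjusted p = 6.952e-18).

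TERF1 has 7 annotated pseudogenes, TERF1P1 to TERF1P7, and by the recorded command alignments were counted at every place a read aligned. The study's methods give counting commands without that option, for count matrices of these hESC data on other annotations. TERF1P4, on the X chromosome, matches the TERF1 transcript at 97.4% over 1116 bases. It had 209 and 325 alignments in the naïve replicates, against 8497 and 7203 in the primed replicates. TERF1P5, on chromosome 13, had 211 and 321 against 8905 and 7523 counts. TERF1P6 was too low to be tested, with 0 and 1 against 3 and 5 counts, and the other 6 were called higher in primed hESCs. Summed over the 7 copies, the counts were 1.89 and 1.92 times that of TERF1 in naïve hESCs, against 3.23 and 3.07 times in the primed libraries. Which copy a read came from cannot be told from these counts, so the TERF1 value is that of a locus that shares alignments with its copies.

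**Figure D3:**
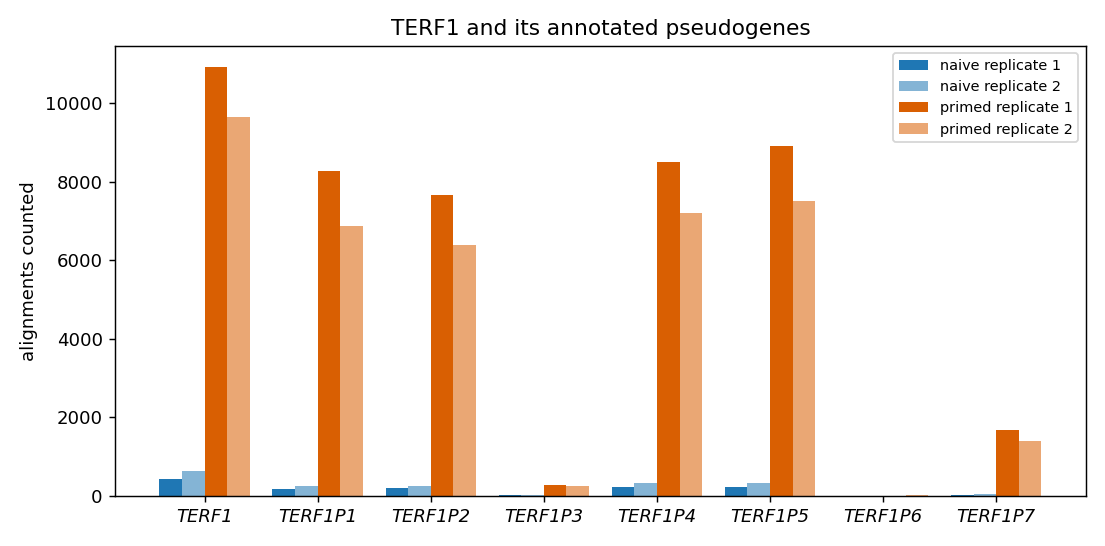
Alignments counted on TERF1 and on each of its 7 annotated pseudogenes (linear axis), with a bar for each library. TERF1P1, TERF1P2, TERF1P4 and TERF1P5 rose with TERF1 and lie just below it in the primed libraries, while TERF1P3 and TERF1P6 stay near the bottom.

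TERF2, the shelterin subunit that protects the chromosome end from fusion, was not called. TERF2 (ENSG00000132604; TERF2-201, chr16:69355567-69386007, minus strand) had 87 and 119 counts in naïve hESCs, against 160 and 150 in primed hESCs. The primed libraries were the higher ones, with 5.44 and 4.90 CPM against 3.78 and 4.67 CPM. The log2 fold change was 0.29 ± 0.21 (SE, n = 2 per state; edgeR adjusted p = 0.224), and 0.92 with an adjusted p of 6.3e-04 when libraries were scaled by size, which falls near the shift of the median gene under that scaling. The 3′ end of its span overlaps another gene, ENSG00000260371, with 484 and 492 against 593 and 545 counts. TERF2-205, which overlaps no other gene, had 63 and 87 against 82 and 99 counts, with a log2 fold change of 0.02 ± 0.24 (edgeR adjusted p = 0.954).

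TERF2IP, the partner of TERF2, was lower in primed hESCs. TERF2IP (ENSG00000166848; TERF2IP-204, chr16:75647791-75761830, plus strand) had 229 and 365 alignments in the naïve replicates, against 197 and 205 in the primed replicates. Both primed libraries lay below both naïve libraries, at 6.70 and 6.69 CPM against 9.94 and 14.3 CPM. The log2 fold change was -0.86 ± 0.18 (SE, n = 2 per state; edgeR adjusted p = 6.841e-05), and -0.23 with an adjusted p of 0.307 by library size. The span crosses KARS1, CPHXL2, DUXB and CPHXL, of which KARS1 had 1181 and 1379 against 1120 and 1063 counts. The canonical isoform, TERF2IP-201, also overlaps KARS1, and no isoform of TERF2IP is clear of other genes. TERF2IP-201 had 174 and 300 against 106 and 106 counts, with a log2 fold change of -1.46 ± 0.21 (edgeR adjusted p = 4.0e-09). The part of TERF2IP-204 beyond it went the other way, with at least 55 and 65 against 91 and 99 counts.

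POT1, which holds the single-stranded overhang, was higher in primed hESCs. POT1 (ENSG00000128513; POT1-223, chr7:124823531-124929954, minus strand, 20 exons) had 43 and 61 counts in naïve hESCs, against 170 and 172 in primed hESCs. The primed libraries were nearly equal and lay well above the naïve ones. The mean was 2.67-fold higher, with a log2 fold change of 1.41 ± 0.23 (SE, n = 2 per state; edgeR adjusted p = 9.43e-07). The antisense gene POT1-AS1 begins within the 5′ end of this span and had 150 and 185 against 453 and 526 counts. POT1-201, which does not overlap it, had 37 and 60 against 157 and 154 counts, with a log2 fold change of 1.43 ± 0.24 (edgeR adjusted p = 9.158e-06).

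ACD, which joins POT1 to TINF2 and recruits telomerase, was not called. ACD (ENSG00000102977; ACD-212, chr16:67657512-67660260, minus strand) had 190 and 162 alignments in the naïve replicates, against 197 and 165 in the primed replicates. In CPM these are 8.25 and 6.36 against 6.70 and 5.39, and the states overlap. The log2 fold change was -0.27 ± 0.20 (SE, n = 2 per state; edgeR adjusted p = 0.214). The sign depended on the scaling and on a single library: it was 0.37 by library size and 0.044 without primed replicate 2, neither of them called, and -0.51 with an adjusted p of 0.048 without naïve replicate 2. Its end touches CARMIL2, and ACD-209, which does not, gave -0.31 ± 0.21 (edgeR adjusted p = 0.183).

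TINF2, the bridge of the complex, was lower in primed hESCs. TINF2 (ENSG00000092330; TINF2-201, chr14:24239643-24242623, minus strand, 9 exons) had 256 and 235 counts in naïve hESCs, against 116 and 141 in primed hESCs. Both primed libraries were low, at 3.94 and 4.60 CPM against 11.1 and 9.22 CPM, and the span overlaps no other gene. The mean was 2.38-fold lower, with a log2 fold change of -1.25 ± 0.19 (SE, n = 2 per state; edgeR adjusted p = 2.645e-07).

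The balance of shelterin transcripts within a library needs no scaling between libraries. Counts per kb of exonic length were divided by their sum over the 6 subunits. TERF1 took 22.8% and 27.8% of the sum in naïve hESCs, against 89.0% and 87.9% in the primed libraries. TINF2 took 25.7% and 19.5% against 1.75% and 2.38%, and TERF2IP 20.9% and 27.7% against 2.71% and 3.15%. ACD went from 22.7% and 16.1% to 3.54% and 3.31%, TERF2 from 5.25% and 5.95% to 1.45% and 1.52%, and POT1 from 2.55% and 3.0% to 1.52% and 1.71%. The sizes depended on how a gene was counted: summed over isoforms, the mean share of TERF2IP was 9.47% in naïve and 0.756% in primed hESCs, and without division by length that of TINF2 was 1.17% in primed hESCs. In the naïve libraries no subunit held the majority, whereas in the primed libraries TERF1 did. With 2 libraries against 2, an exact permutation test cannot go below p = 0.333, so no test was made.

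**Figure D4:**
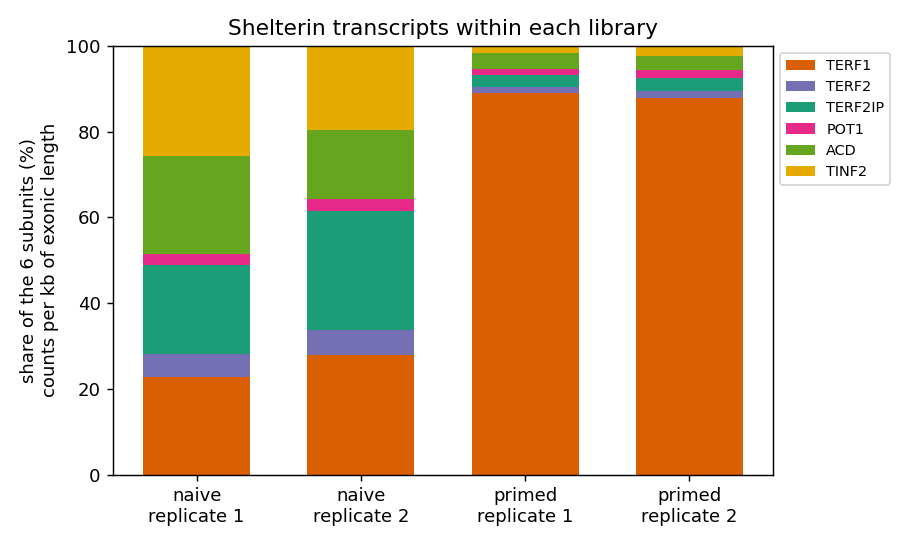
Share of each of the 6 subunits in the summed counts per kb of exonic length of shelterin, in percent, with a stacked bar for each library. TERF1 fills 22.8% and 27.8% of the naïve bars and 89.0% and 87.9% of the primed bars.

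Since TERF1 shares alignments with its pseudogenes, the shares were also taken over the other 5 subunits. POT1 then took 3.31% and 4.16% in naïve hESCs, against 13.8% and 14.2% in primed hESCs, and TERF2 6.80% and 8.24% against 13.2% and 12.6%. TINF2 took 33.3% and 27.1% against 15.9% and 19.7%. For ACD the states overlapped, with 29.5% and 22.2% against 32.3% and 27.4%. TERF2IP took 27.1% and 38.3% against 24.7% and 26.1%. Leaving TERF1 out thus turned the direction for POT1 and TERF2, whose shares of all 6 subunits were lower in the primed libraries, while the shares of TINF2 and TERF2IP were lower there in both counts.

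RIF1 binds telomeres that have lost protection, steers the choice of break repair and sets the timing of replication. RIF1 (ENSG00000080345; RIF1-205, chr2:151409902-151482172, plus strand, 36 exons) had 1000 and 1142 alignments in the naïve replicates, against 984 and 1019 in the primed replicates. In CPM these are 43.4 and 44.8 against 33.5 and 33.3, so the replicates lay close together and the primed libraries lower. The mean was 1.32-fold lower, with a log2 fold change of -0.40 ± 0.15 (SE, n = 2 per state; edgeR adjusted p = 0.0134). This call was a narrow one. By library size the log2 fold change was 0.24 (adjusted p = 0.134), and without primed replicate 1 or 2 it was -0.24 and -0.23 (adjusted p = 0.255 and 0.273).

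**Figure D5:**
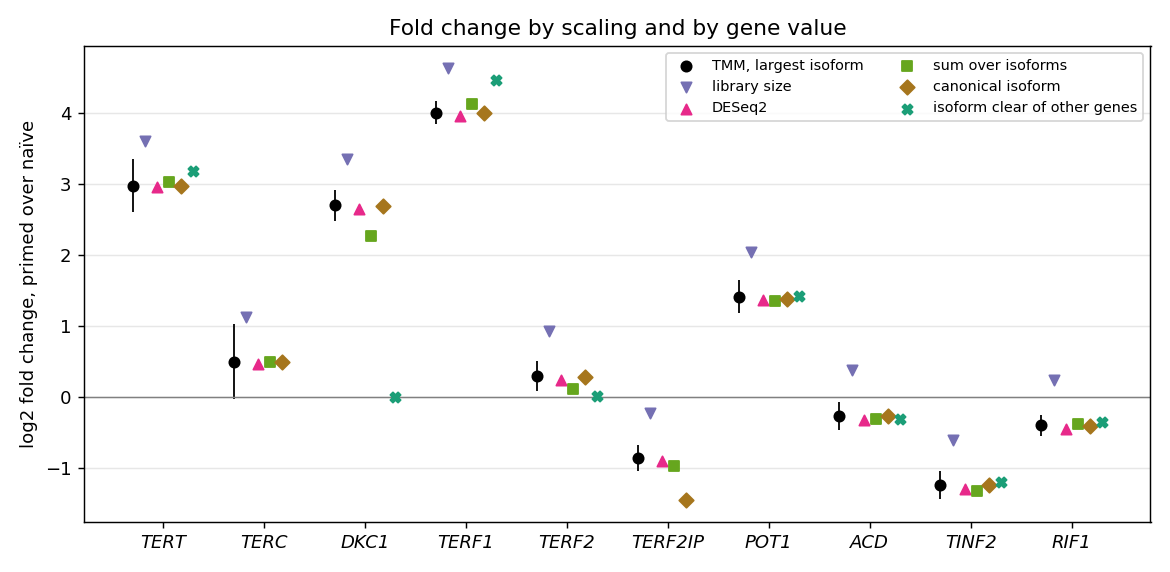
Log2 fold change (primed over naïve) of each gene under TMM scaling (black, with SE), library size, DESeq2, the sum over isoforms, the canonical isoform and, where there is 1 that was tested, the isoform clear of other genes. Library size moves all 10 genes up, ACD and RIF1 across 0, and DKC1 falls to -0.0047 over the isoform clear of other genes.

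Isoform usage was tested for 119 of the 121 isoforms by edgeR's diffSpliceDGE. None was called at an adjusted p under 0.05 with an isoform fraction difference beyond 0.1, against 0.545% of 159577 isoforms. Of the 119, 14 had an unadjusted p under 0.05, none of them with a difference beyond 0.1. No other tool was run for usage. Many spans hold the same alignments, and the 121 isoforms had 93 distinct sets of counts. With no threshold on the fraction, 12 isoforms were called, against 4.27% of all tested isoforms: 9 of DKC1 and 3 of RIF1. The largest difference among them was 7.15 percentage points, for DKC1-207, whose share of DKC1 was 6.93% and 11.9% in naïve hESCs, against 2.43% and 2.06% in primed hESCs. These 9 DKC1 isoforms took a smaller share in the primed libraries, where counts on the 3′ stretch were high. Larger differences were not called. For DKC1-211, which reaches into the last exon, the isoform fraction difference was 0.2185 (diffSpliceDGE adjusted p = 0.947). Its share was 29.4% and 13.8% in naïve hESCs, against 43.0% and 43.9% in primed hESCs. For DKC1-201, which spans the gene, the difference was 0.103.

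The 3 RIF1 isoforms, RIF1-207, RIF1-208 and RIF1-210, reach or lie past the end of RIF1-205, where NEB begins to overlap them. NEB is the gene of the muscle protein nebulin. RIF1-207 (chr2:151464700-151508013) had 116 and 120 counts in naïve hESCs, against 256 and 250 in primed hESCs. NEB itself had 35 and 43 against 319 and 294 counts. Alignments of the 2 genes in the shared part cannot be told apart, since strand was not used.

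The other genes of telomere maintenance were read from 4 lists, of which 43 of 46 genes could be tested. Of these, 10 were higher and 11 lower in primed hESCs, with a median log2 fold change of 0.14, beside the 37.4% and 32.6% called over all genes. By library size 28 were higher and 5 lower, beside 56.2% and 16.3% over all genes. The share of higher calls thus lay below that of all genes under TMM and above it by library size, and the directions that follow hold under TMM. The number higher was 6 without naïve replicate 1 and 6 without naïve replicate 2.

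Of 11 genes that assemble or mature telomerase, 1 was higher and 3 were lower, with a median log2 fold change of -0.22. The higher call was lost under DESeq2, over the sum of isoforms, the canonical isoform and the isoform clear of other genes, and without naïve replicate 2 or primed replicate 1. The 3 lower genes encode the partners of dyskerin in the core of the particle. NOP10 had 4753 and 4671 alignments in the naïve replicates, against 2246 and 2604 in the primed replicates, with a log2 fold change of -1.27 ± 0.14 (edgeR adjusted p = 2.116e-10). GAR1 fell by 0.98 on the log2 scale under TMM and was not called by library size (-0.34, adjusted p = 0.0921), and NHP2 fell by 0.82 under TMM and was at -0.17 by library size (adjusted p = 0.229).

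Of 12 genes of the CST complex and telomere replication, 3 were higher and 4 lower, with a median log2 fold change of 0.04. All 3 subunits of CST, which ends telomerase action and fills in the second strand, were lower. CTC1 had 189 and 208 counts in naïve hESCs, against 69 and 103 in primed hESCs, with a log2 fold change of -1.52 ± 0.21 (edgeR adjusted p = 3.337e-08). TEN1, which overlaps TEN1-CDK3, had 331 and 303 against 132 and 125 counts, with a log2 fold change of -1.61 ± 0.19. STN1 had 312 and 260 against 176 and 196 counts, a log2 fold change of -0.94 under TMM and -0.29 (adjusted p = 0.154) by library size. POLA1, the catalytic subunit of the DNA polymerase alpha that CST brings in, was called lower (log2 fold change -0.86). Its span holds the pseudogene EEF1B2P3. The POLA1 isoform clear of other genes, POLA1-214, had 90 and 142 against 251 and 336 counts. That isoform was called higher (1.09, edgeR adjusted p = 3.93e-05). BLM, a helicase that resolves replication structures, was higher with a log2 fold change of 0.51 ± 0.17, and FEN1, a flap nuclease that overlaps FADS2, with 0.37 ± 0.16 (edgeR adjusted p = 0.0071 and 0.0351). Neither call was kept without naïve replicate 1 or without naïve replicate 2.

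Of the 11 regulators and chromatin factors, 8 could be tested, with 2 higher, 1 lower and a median log2 fold change of 0.23. ATRX and DAXX form the complex that lays histone H3.3 at telomeres, and they moved in opposite directions. ATRX had 506 and 586 alignments in the naïve replicates, against 1285 and 1383 in the primed replicates, with a log2 fold change of 0.98 ± 0.15 (edgeR adjusted p = 1.895e-07). DAXX had 1252 and 1255 against 530 and 491 counts, with -1.60 ± 0.15 (edgeR adjusted p = 1.602e-12). Both directions held by library size, at 1.62 and -0.96. TNKS2, a tankyrase that releases TERF1 from telomeres and whose span holds SRP9P1, was higher by 0.70 ± 0.14. ZSCAN4, TERB2 and MAJIN had at most 10 counts in any library and were not tested.

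Of 12 partners of RIF1 and genes of break signalling, 4 were higher and 3 lower, with a median log2 fold change of 0.25. MAD2L2, the shieldin subunit REV7 that acts downstream of RIF1, had 807 and 696 counts in naïve hESCs, against 1749 and 1723 in primed hESCs, with a log2 fold change of 0.89 ± 0.15 (edgeR adjusted p = 1.581e-06). SHLD3, another shieldin subunit, had 158 and 153 against 99 and 86 counts, a log2 fold change of -1.06 ± 0.21 under TMM that was not called by library size (-0.42, adjusted p = 0.0864). PPP1CB, a catalytic subunit of the phosphatase that RIF1 recruits, had 1155 and 1416 against 568 and 475 counts and a log2 fold change of -1.60 ± 0.16. The other catalytic subunits in the list differed in direction. PPP1CC was called higher, at 0.40 (edgeR adjusted p = 0.0138). PPP1CA was called lower, at -0.79 (edgeR adjusted p = 1.945e-05), but not by library size (-0.14, adjusted p = 0.399). ATM, the kinase of break signalling, was higher with 1.5 ± 0.17 (edgeR adjusted p = 2.564e-10), but its isoform clear of other genes had 108 and 81 against 112 and 128 counts and was not called (0.08, adjusted p = 0.777).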

How the data were processed

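Raw counts were deposited for each of the 4 libraries. The authors aligned the reads with minimap2 to GRCh38 and counted alignments on each transcript of Ensembl release 105 with featureCounts 2.0.0, over whole spans, strand ignored. By the file headers, an alignment counted for every span it overlapped and at every place it aligned. The paper's methods give commands without the second of these options (-M), and the headers were followed here. Those commands were for the matrix of its simulation and for its usage analysis of these hESC data on merged annotations. Symbols came from GENCODE release 44 by transcript identifier (242542 of 244825, 97.9% of these at the same position). The 2283 others held 1.0% of the counts.

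Genes were kept if 2 or more libraries reached 10 counts, and were fitted with edgeR 4.0.16 in R 4.3.3 (TMM, quasi-likelihood, state as the term, two-sided, Benjamini-Hochberg). Usage was tested with diffSpliceDGE, and DESeq2 1.42.0 was an alternative. A count of 0 allows up to 3 counts, 0.0979 to 0.130 CPM by library, for counting error only. Replicates differed beyond sampling noise (chi-square per degree of freedom 15.3 and 9.04). Pseudogenes were compared with blastn 2.17.0, sequences read with samtools 1.23.1, and tables handled with pandas 2.3.3 in Python 3.11.15. The fits were tested on simulated data.

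The members and lists were chosen with earlier results of these data known. Named from each list were up to 2 called genes per direction with the largest change, a mean count of 50 or more and no overlap between states, along with overlapping genes, pseudogenes and the 5 genes nearest to TERT. NHP2, STN1, POLA1, PPP1CA, PPP1CC and NEB were named after their values were seen, as was the isoform clear of other genes. The values of 1 gene of the telomerase assembly list that was called higher are not reported here.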

Additional observations from a re-analysis of the deposited data

How the results depend on the processing

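Of 436 recomputed values, 359 kept their direction and call or stayed within the spread, 21 lost their call, 2 gained one, 4 changed sign and 50 moved. With library size in place of TMM, 1 of the 10 genes was lower, 28 list genes were higher and 5 lower, and over all genes 15543 were higher and 4504 lower. ACD became 0.37 and RIF1 0.24, neither called. With a filter of 50 counts, 16 list genes were higher. With a log2 fold change beyond 1 also required, 1 of the 10 genes was lower, 1 list gene was higher and 6 were lower, and 5120 of all genes were lower. Over isoforms clear of other genes, chosen after seeing the data, fewer genes could be tested, 4966 were higher and 4396 lower, and DKC1 was at -0.0047. With a library left out, which assumes that the lone one varies like the other state, 6 to 13 list genes were higher, 2 to 4 of the 10 genes were lower, and ACD ran from -0.51 to 0.044. Called isoforms numbered 0 to 3, the 3 without naïve replicate 1, and 12 with no fraction threshold. The share of TERF1 in shelterin, 25.3% and 88.5% on average in naïve and primed hESCs, was 36.9% and 92.5% without length, 33.5% and 91.7% summed over isoforms, 90.3% in primed hESCs over canonical isoforms, and 18.8% and 86.8% over isoforms clear of other genes. The mean shares of the other 5 subunits were lower in primed than in naïve hESCs under each of these, but moved by over 1.5 times in places. Summed over isoforms they were 3.67% and 0.623% for TERF2, 9.47% and 0.756% for TERF2IP, and 6.59% and 2.65% for POT1. Over clear isoforms they were 17.4% and 3.70% for TERF2 and 31.9% and 5.33% for ACD, with TERF2IP left out for want of one. In primed hESCs TERF2IP was 1.46% over canonical isoforms, and without length it was 1.82%, ACD 1.63% and TINF2 1.17%. The cause of these changes was not tested, apart from the fewer genes tested.

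Same-numbered libraries did not deviate together (Pearson 0.0782, Spearman 0.102 over 17615 genes). With 2 replicates per state, this cannot exclude that same-numbered libraries were handled together. With the replicate block, 4 of the 10 genes were higher and 3 lower, 10 list genes higher and 12 lower, 10470 of all genes higher and 9218 lower, and 0 isoforms were called. Low counts limit TERC and TERT, and TERC could not be tested with the stricter filter.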
